A study of Mus musculus with 6 samples.

Results

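Neutrophils are the short-lived granulocytes of the blood that reach tissue first in infection and injury. They mature in the bone marrow through stages that fill primary, then secondary and then tertiary granules with antimicrobial proteins, and the mRNAs of each granule class fade as the cell leaves that stage. The calprotectin subunits S100a8 and S100a9 make up much of their cytosolic protein, G-CSF acting through Csf3r and the JAK/STAT pathway drives their production, and interferon induces a set of antiviral genes in them. Few neutrophils are found in the healthy brain parenchyma, where microglia are the resident immune cells.

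The 237 neutrophils described here were chosen from 77105 cells of 4 single-cell libraries of sorted CD45+ midbrain cells, of which they made up 0.307%. A cell was kept when it held 500 to 15000 UMIs (unique molecular identifiers, each 1 captured mRNA), 250 to 5000 genes and at most 10% mitochondrial UMIs. It was called a neutrophil when it held at least 10 UMIs of S100a8 and S100a9 together, at least 1 UMI over Retnlg, Cxcr2, Mmp9 and Ly6g, and more S100a8 and S100a9 than the sum of the microglial genes P2ry12, Tmem119, Siglech and Cx3cr1. The levels of these 10 genes therefore selected the cells and are no finding. A further 13 barcodes met the marker conditions but lay above the limit of 15000 UMIs.

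All mice were male Line 61 animals, which carry a human α-synuclein transgene on the X chromosome under the Thy1 promoter, and were 12 to 15 weeks old when injected into both striata. One group received PBS, one α-synuclein monomer, and the others preformed fibrils of α-synuclein (PFF) followed by daily oral vehicle (PFF + VH, with DMSO) or the JAK1/2 inhibitor AZD1480 at 25 mg/kg (PFF + AZD1480) for 4 weeks from week 2. Midbrains were taken at week 6 after perfusion, with 3 to 5 pooled per sample, and mononuclear cells were enriched on a Percoll gradient, a step that can lose granulocytes. Each condition was 1 library, so PBS, monomer and PFF cannot be compared by a test, and a difference between their neutrophils cannot be told apart from a difference between libraries. The PFF libraries carried antibody hashtags, 4 with vehicle and 5 with AZD1480, which were taken as replicate samples.

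The hashtags are antibody-bound oligonucleotides that label cells by their sample of origin, and every test of the drug rests on reading them. Their barcodes, as deposited and in the 5′ to 3′ direction of the file, were:
Hashtag 1: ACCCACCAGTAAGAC
Hashtag 2: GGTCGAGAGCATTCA
Hashtag 3: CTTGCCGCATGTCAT
Hashtag 4: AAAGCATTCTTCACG
Hashtag 5, used in the PFF + AZD1480 library alone: CTTTGTCTTTGTGAG

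The libraries held between 99658216 and 116440449 UMIs in all. The neutrophils held a median of 3701 UMIs in PBS, 3740 after monomer, 1733 with PFF + VH and 5852 in PFF + AZD1480, against 7037.5, 6689, 2308 and 6620.5 in the other cells of the same libraries. Summed over cells, the neutrophils gave 313656, 93748, 241464 and 395498 UMIs, and levels below are CPM, counts scaled to a sum of 1000000, with exact Poisson 95% intervals that cover counting error only. Between 51 and 163 cell barcodes were shared by each pair of libraries, and no barcode was a neutrophil in more than 1 library.

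The 10 neutrophil genes fixed as markers but not used in the choice were detected in every library. They included Csf3r, Hdc (histidine decarboxylase), the receptors Il1r2, Trem1 and Clec4d, the surface protein Cd177, and Wfdc21, and together they held 15316 CPM in PBS, 17291 after monomer, 6900 with PFF + VH and 13383 in PFF + AZD1480, against 315 to 389 CPM in microglia. The genes with the largest ratio to all other cells, as a description of the chosen cells, were Stfa2l1, Retnlg, Dhrs9, Ly6g, Cstdc4, Mmp8, S100a9, Lcn2, S100a8 and Ngp. Stfa2l1 and Cstdc4 belong to the stefin family of cysteine protease inhibitors. Stfa2l1 stood at a mean of 366 CPM over the 4 libraries and at 0.0265 CPM in the other cells.

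Markers of other cell types stood at unequal levels in these profiles. The 12 microglial markers were all detected in the neutrophils of each library, with 5777 CPM in PBS, 5525 after monomer, 17083 with PFF + VH and 5449 in PFF + AZD1480. Set against the same markers in microglia of the same library, this corresponds to a microglial share of 16.1%, 14.4%, 47.3% and 16.2% of the neutrophils' UMIs, if the neutrophils themselves express none of them. The rule capped 4 of these 12 markers in each cell, and the other 8 gave 16.9%, 16%, 47.4% and 16.1%. On that reading the PFF + VH profile held about as much microglial as other RNA. Comparisons with it below hold this share unless its removal is stated. Of 96 PFF + VH neutrophils, 5 had no UMI of the 4 microglial genes of the rule, against 23 of 65, 4 of 19 and 10 of 57 in PBS, monomer and PFF + AZD1480. The 6 monocyte markers summed to 328 to 650 CPM, nearly all of it Ly6c2, while Ccr2, which defines classical monocytes, stood between 0 and 10.7 CPM and Fn1 at 0 in all libraries. The dendritic markers Flt3, Cd209a, Xcr1 and Ccr7 and the T cell genes Trac and Trbc2 had no UMI in any library, while Cd3d stood at 42.7 to 116 CPM and H2-Aa, of antigen-presenting cells, at 10.7 to 185 CPM. The erythroid markers were likewise at 0, and the summed B cell, mast cell, eosinophil and platelet markers each stayed at or below 32 CPM. The 5 border macrophage markers summed to 63.8, 85.3, 16.6 and 93.6 CPM in PBS, monomer, PFF + VH and PFF + AZD1480, against 85.2, 61.5, 71.7 and 126 CPM in microglia. In the other direction, S100a8 and S100a9 summed to 13 and 4.48 CPM in the microglia of PBS and monomer and to 66.7 and 49.2 CPM in those of PFF + VH and PFF + AZD1480.

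Which libraries had cells near the limits of the choice depended on the limit. The lowest sum of S100a8 and S100a9 was 24 UMIs in PBS, 22 after monomer, 21 with PFF + VH and 11 in PFF + AZD1480, and 3 neutrophils, all of PFF + AZD1480, held 10 to 19 UMIs. Just outside, 9 cells held 5 to 9 UMIs with another marker, 1 in PBS, 4 after monomer, 0 with PFF + VH and 4 in PFF + AZD1480. A further 70 cells held 10 or more UMIs of S100a8 and S100a9 without being called neutrophils, 58 of them in PFF + VH. In 46 of these 58 the microglial sum was not lower. With 2 UMIs of the other markers required, 85 of the 96 PFF + VH neutrophils were left and the other libraries kept all of theirs.

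Neutrophils were rare in each library, and their share was lowest after monomer injection, unless cells with any UMI of the 4 microglial genes were left out, when PFF + VH was lowest (0.0145% against 0.0266% in monomer). They were 65 of 14617 cells in PBS, or 0.445% with an exact binomial 95% interval of 0.343% to 0.566%. In monomer they were 19 of 15031 cells (0.126%, interval 0.0761% to 0.197%). In PFF + VH they were 96 of 34436 cells (0.279%, 0.226% to 0.340%), and in PFF + AZD1480 57 of 13021 cells (0.438%, 0.332% to 0.567%). The intervals of PBS and PFF + AZD1480 overlapped, and that of monomer lay below all others. With 1 library per condition these intervals hold no spread between animals.

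**Figure D1:**
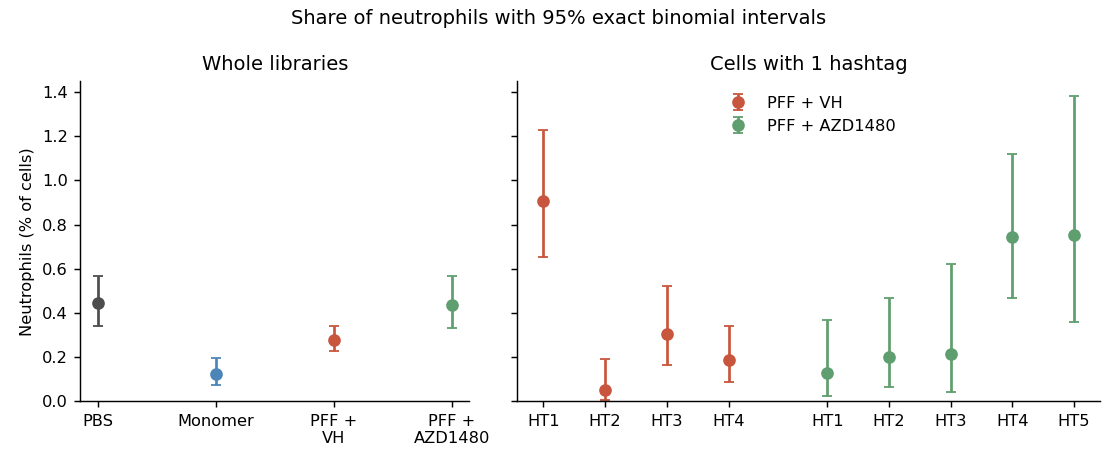
Share of neutrophils among cells, in percent, for the 4 libraries (left) and for cells with 1 hashtag in the PFF libraries (right), with exact binomial 95% intervals. Shares of single hashtags ranged from 0.0531% to 0.909% in PFF + VH and from 0.127% to 0.751% in PFF + AZD1480, so the hashtags of both conditions overlapped. The highest, hashtag 1 of PFF + VH, had an estimated microglial share of 63.8% of UMIs.

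The hashtags showed how far neutrophil shares varied within a condition. In PFF + VH, hashtag 1 held 41 neutrophils among 4512 cells (0.909%), hashtag 2 held 2 among 3770 (0.0531%), hashtag 3 held 13 among 4246 (0.306%) and hashtag 4 held 10 among 5365 (0.186%). In PFF + AZD1480, the shares were 0.127%, 0.201% and 0.214% for hashtags 1 to 3 and 0.743% and 0.751% for hashtags 4 and 5. One hashtag thus gave 42.7% of the PFF + VH neutrophils, and another, hashtag 4, gave 38.6% of those in PFF + AZD1480. In hashtag 1 of PFF + VH an estimated 63.8% of the neutrophils' UMIs were microglial, the most of any single hashtag. Its share therefore depends on how cells with microglial RNA are called. The mean share was 0.407% ± 0.312 (SD, n = 5 hashtags) with AZD1480 and 0.364% ± 0.378 (SD, n = 4) with vehicle, a difference of 0.0435 percentage points that the two-sided exact permutation test did not separate (p = 1.00). The smallest p this design allows is 0.0159. The difference was 0.225 points without hashtag 1 of PFF + VH and lay below 0 without hashtag 2 or 4 of PFF + VH or hashtag 4 or 5 of PFF + AZD1480. In PFF + AZD1480, 14 neutrophils carried more than 1 hashtag, which was 24.6% of its neutrophils against 12.5% of its cells. In PFF + VH the same figures were 15.6% and 10.7%. A further 15 PFF + VH neutrophils (15.6%) had no hashtag call, as did 37.3% of its cells, against 0% and 6.41% in PFF + AZD1480. Cells without a call or with more than 1 hashtag entered no hashtag share.

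Granule genes split the neutrophils into cells that were filled with secondary granule mRNA and cells that nearly lacked it. Primary granule genes, transcribed in promyelocytes, were close to absent, at 3.19 to 37.3 CPM for 6 genes together. The 10 secondary granule genes held 3.48% of the neutrophils' UMIs in PBS (3.42% to 3.55%), 4.26% in monomer (4.13% to 4.39%), 3.24% in PFF + VH (3.17% to 3.31%) and 7% in PFF + AZD1480 (6.91% to 7.08%). Summed over cells, the neutrophils with AZD1480 thus carried the most granule mRNA of the 4 libraries. With the microglial share removed the sums were 41542, 49764, 61346 and 83474 CPM, so that PFF + VH moved from the lowest to the second highest. The antimicrobial peptide gene Camp stood at 9179 CPM in PBS, 13888 after monomer, 10979 with PFF + VH and 21123 in PFF + AZD1480. Ngp, which encodes neutrophilic granule protein, stood at 10556, 12534, 9906 and 23014 CPM in the same order. The iron-binding lactotransferrin gene Ltf (3351, 1941, 2352 and 7156 CPM) and the lipocalin Lcn2 (6466, 5184, 4742 and 10233 CPM), which binds bacterial siderophores, were also highest with AZD1480. Chil3, a chitinase-like protein, was instead highest after monomer, at 3957 CPM against 880 to 2248. Nearly all of its monomer UMIs, 365, lay in the 2 cells with the highest share of Camp, Ngp, Ltf and Lcn2.

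Per cell, the UMIs of Camp, Ngp, Ltf and Lcn2 ranged from near 0 to 20.2% of a neutrophil's UMIs, while the median cell had 0.153% in PBS, 0.0692% after monomer, 0.114% with PFF + VH and 0.239% in PFF + AZD1480. With a limit of 3%, set after the values were seen, 6 of 65 PBS neutrophils were granule-high (9.23%, exact binomial interval 3.46% to 19.0%), 2 of 19 in monomer (10.5%, 1.30% to 33.1%), 14 of 96 in PFF + VH (14.6%, 8.21% to 23.3%) and 20 of 57 in PFF + AZD1480 (35.1%, 22.9% to 48.9%). In the remaining, granule-low cells, which were chosen as low in 4 of them, the 10 secondary granule genes summed to 5546, 9776, 6554 and 6549 CPM. PFF + AZD1480 was thus not highest there. The cells between 1% and 8% numbered 2, 2, 23 and 6, so the split was blurred in PFF + VH, the library with the most microglial RNA. By hashtag, the 4 genes held 12.6% and 12.9% of the UMIs in hashtags 1 and 3 of PFF + AZD1480, which had 3 neutrophils each, 9.15% in hashtag 5, and 1.79% and 4.99% in hashtags 2 and 4. In PFF + VH they held 0.798%, 0.0441%, 4.21% and 3.64% in hashtags 1 to 4, and 4.58% in the 15 neutrophils without a hashtag call. Of the 14 granule-high PFF + VH neutrophils, 6 had no call and 3 carried more than 1 hashtag, so these are missing from the hashtag values. The hashtags of both conditions overlapped.

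**Figure D2:**
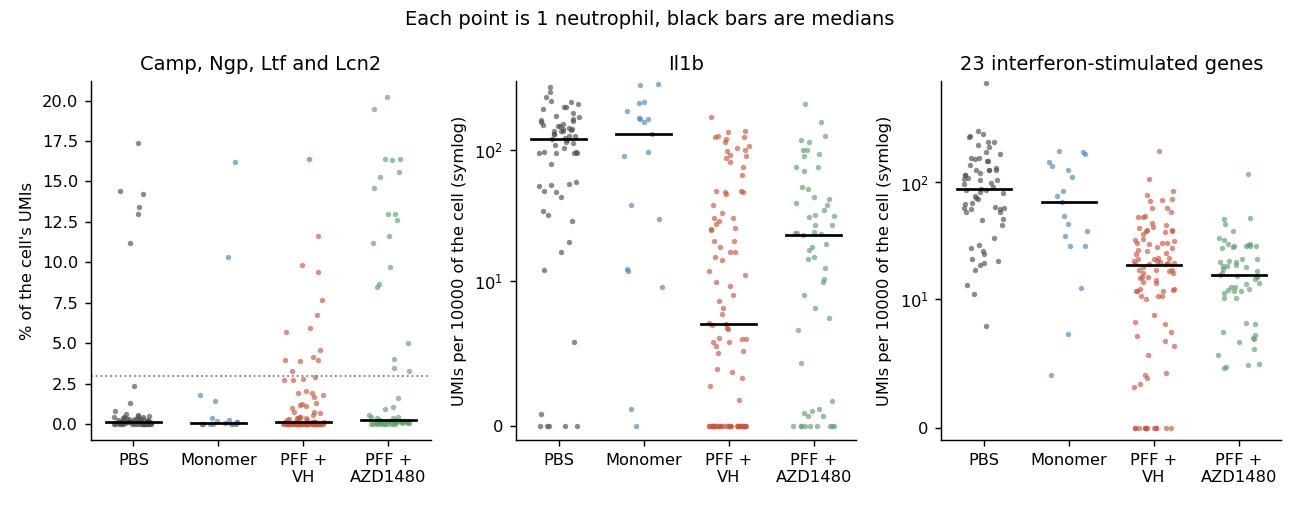
Each neutrophil's share of UMIs in Camp, Ngp, Ltf and Lcn2 (percent, dotted line at 3%), Il1b UMIs and UMIs of 23 interferon-stimulated genes (both per 10000 UMIs of the cell, on a scale that is linear near 0 and logarithmic above), by library, with medians as black bars. The Il1b medians were 122, 134, 7.05 and 22.5 and the interferon-stimulated medians 87.1, 68.0, 19.3 and 16.1 in PBS, monomer, PFF + VH and PFF + AZD1480.

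The granule-high cells held more UMIs than the others and less Il1b, Csf3r and Isg15 in each library, and more Cybb. Their median was 10867 UMIs in PBS, 11173 after monomer, 2916 with PFF + VH and 10317 in PFF + AZD1480, against 3638, 3105, 1642 and 4920 in the granule-low cells. Il1b, the inflammatory cytokine, stood at 15.9, 44.8, 242 and 366 CPM in granule-high cells and at 11252, 11456, 3595 and 4984 CPM in granule-low cells. The G-CSF receptor gene Csf3r stood at 95.4 to 263 CPM in granule-high cells and at 829 to 2863 in granule-low cells. Isg15 had no UMI in the granule-high cells of 3 libraries and 10.3 CPM in those of PFF + AZD1480. Cybb, the membrane subunit of the phagocyte NADPH oxidase, stood at 1440 to 2389 CPM in granule-high cells and at 87.7 to 252 in granule-low cells. These are descriptions of cells grouped by their own values, without a test.

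Cell-cycle genes, which neutrophils stop transcribing after the myelocyte stage, were nearly absent apart from single cells. They gave 23 UMIs in PBS and 13 in PFF + AZD1480, with at most 4 and 2 in 1 cell. In monomer 83 of 84 UMIs came from 1 cell. In PFF + VH, 43 of 101 came from 1 cell and 34 from another, the 2 cells with 10 or more.

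Tertiary granule and secretory vesicle genes followed the secondary ones across libraries. The 10 genes, of which Mmp9 was used in the choice, held 1.44% of UMIs in PBS, 1.47% after monomer, 1.09% with PFF + VH and 2.39% in PFF + AZD1480. Lyz2, the macrophage and neutrophil lysozyme, stood at 6727, 6443, 5732 and 14190 CPM in this order. Anxa1, an inhibitor of neutrophil adhesion, stood at 1989, 2027, 1151 and 2662 CPM, and Pglyrp1, which binds bacterial peptidoglycan, at 2273, 2357, 1445 and 2956 CPM. Each of these was highest with AZD1480. With the microglial share removed the 10 genes summed to 16980, 16915, 19148 and 28245 CPM, and PFF + VH then stood above PBS and monomer for Lyz2 (10434 against 7963 and 7463 CPM) and between them for Pglyrp1 (2742 against 2711 and 2754 CPM).

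Olfm4 (chr14:79984081-80023139, plus strand, protein-coding, mm10), the gene of a secondary granule protein that marks a subset of mouse and human neutrophils, was present in 3 libraries and not detected in PFF + VH. It gave 118 UMIs in 6 PBS cells, 35 in 1 monomer cell, none in 96 PFF + VH cells and 288 in 13 PFF + AZD1480 cells. These counts correspond to 376, 373, 0 and 728 CPM, where 3 counts in PFF + VH would be 12.4 CPM. The UMIs came from few cells, with up to 74 in 1 PBS cell and 63 in 1 PFF + AZD1480 cell. That level therefore does not bound the gene in PFF + VH, since 1 such cell would exceed it, and no fold is given. By hashtag, Olfm4 stood at 0 CPM in each of the 4 PFF + VH hashtags, and at 0, 395, 0, 671 and 2017 CPM in hashtags 1 to 5 of PFF + AZD1480. Of the 288 UMIs, 256 lay in granule-high cells. In microglia the gene stood at 4.57 to 8.51 CPM, with the highest value in PFF + VH.

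Sequence upstream of these genes was read to show the letters of 2 known motif types. Promoters (250 bases before to 50 after the start, RefSeq, GRCm38.p6) were searched on both strands for TTNNGNAA, a loose form of the site of C/EBP factors, which drive granule genes. It was found for 7 of the 9 secondary granule genes with a promoter in the table, for 12 of 21 interferon-stimulated genes and for 44.1% of all 27025 genes, or in 40.7% of all 32851 promoters. The letters are shown in capitals for S100a8 (chr3:90668821-90669120, plus strand) and Ngp (chr9:110419558-110419857, plus strand).
S100a8: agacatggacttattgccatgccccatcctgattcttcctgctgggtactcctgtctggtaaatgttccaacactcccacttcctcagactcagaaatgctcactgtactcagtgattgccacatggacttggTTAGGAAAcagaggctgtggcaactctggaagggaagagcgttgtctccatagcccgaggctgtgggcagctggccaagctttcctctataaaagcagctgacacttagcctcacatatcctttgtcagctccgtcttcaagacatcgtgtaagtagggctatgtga
Ngp: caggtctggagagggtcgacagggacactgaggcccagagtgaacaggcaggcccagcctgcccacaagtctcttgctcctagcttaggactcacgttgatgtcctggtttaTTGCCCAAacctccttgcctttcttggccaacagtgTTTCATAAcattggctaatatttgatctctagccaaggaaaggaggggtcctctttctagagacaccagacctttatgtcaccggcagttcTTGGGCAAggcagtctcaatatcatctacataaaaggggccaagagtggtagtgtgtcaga
The S100a8 promoter held 1 match and that of Ngp 3. A match describes the letters in the window and does not show that a factor binds.

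Interferon-stimulated genes were highest in the neutrophils of PBS and lowest in those of PFF + AZD1480. These genes are induced when interferon receptors activate JAK kinases and STAT factors. Summed over 23 genes they held 0.901% of UMIs in PBS (0.868% to 0.935%), 0.621% in monomer (0.571% to 0.673%), 0.239% in PFF + VH (0.220% to 0.260%) and 0.183% in PFF + AZD1480 (0.170% to 0.197%). The intervals of neighbours in this order did not overlap, but they hold counting error alone. In microglia of the same libraries the same genes summed to 404, 411, 651 and 361 CPM, with the highest value in PFF + VH. The order in neutrophils was kept when the estimated microglial share was removed (10663, 7185, 3959 and 2118 CPM) and in granule-low cells alone (10551, 7675, 2924 and 1953 CPM).

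Single genes of the list showed how wide the range was. Isg15, a ubiquitin-like protein, stood at 548 CPM in PBS (469 to 637), 736 in monomer (573 to 931), 124 in PFF + VH (83.8 to 177) and 25.3 in PFF + AZD1480 (12.1 to 46.5). Rsad2, which encodes the antiviral enzyme viperin, stood at 201, 74.7 and 24.8 CPM in PBS, monomer and PFF + VH and had no UMI in PFF + AZD1480. Both were lowest in PFF + AZD1480. Ifitm1, a membrane protein that restricts virus entry, stood at 2608, 1472, 472 and 301 CPM, and its microglial level stayed below 1 CPM. Slfn4, a Schlafen gene of myeloid cells, stood at 494, 352, 120 and 80.9 CPM. Ifitm3 differed less than these 4, with 963, 960, 489 and 599 CPM. Of the 23 genes, 10 had no UMI in PFF + AZD1480, against 4 in monomer and PFF + VH each and 0 in PBS.

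When each cell was thinned to 500 UMIs, Isg15 was found in 21.5% of PBS neutrophils (12.3% to 33.5%), 15.8% in monomer (3.38% to 39.6%), 5.21% in PFF + VH (1.71% to 11.7%) and 1.75% in PFF + AZD1480 (0.0444% to 9.39%). Without thinning the shares were 56.9%, 63.2%, 15.6% and 10.5%. In thinned microglia, which served as the background, the shares were 0.450%, 0.900%, 2.30% and 1.20%, so the share in PFF + AZD1480 was near that of microglia.

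The promoters of this list were searched for GAAA, any 2 bases and GAAA again, the core of the interferon-stimulated response element, to which interferon-activated factors bind. It was found for 12 of 21 genes with a promoter in the table, for 1 of 9 secondary granule genes and for 3.99% of all genes, or in 3.44% of all promoters. Matches are in capitals for Isg15 (chr4:156200769-156201068, minus strand), where overlapping copies run together, and Rsad2 (chr12:26456403-26456702, minus strand), where the match reads on the opposite strand.
Isg15: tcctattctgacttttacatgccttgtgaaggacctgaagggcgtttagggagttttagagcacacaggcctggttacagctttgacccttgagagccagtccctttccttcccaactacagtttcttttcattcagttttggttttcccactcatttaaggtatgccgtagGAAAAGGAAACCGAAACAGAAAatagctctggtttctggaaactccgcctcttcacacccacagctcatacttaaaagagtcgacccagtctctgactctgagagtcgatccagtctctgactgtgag
Rsad2: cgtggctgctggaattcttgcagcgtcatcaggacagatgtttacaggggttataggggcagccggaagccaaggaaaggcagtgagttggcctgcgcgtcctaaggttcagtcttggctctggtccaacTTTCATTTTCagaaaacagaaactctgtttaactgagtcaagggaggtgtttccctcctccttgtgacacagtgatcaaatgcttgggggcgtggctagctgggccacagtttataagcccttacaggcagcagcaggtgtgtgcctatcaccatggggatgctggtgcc
The Isg15 window held 3 overlapping matches and that of Rsad2 held 1.

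**Figure D3:**
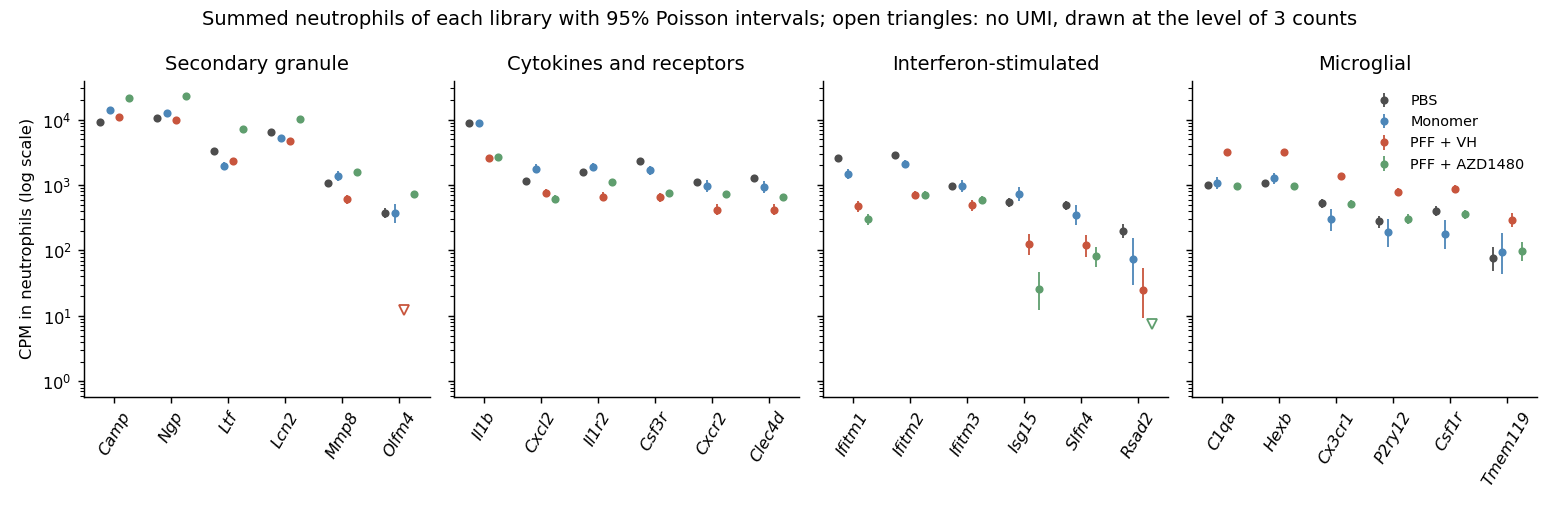
CPM (log scale) of selected genes in the summed neutrophils of each library with exact Poisson 95% intervals, open triangles marking genes without a UMI at the level of 3 counts. The 4 granule genes Camp, Ngp, Ltf and Lcn2 were highest in PFF + AZD1480, Ifitm1 and Slfn4 stepped down from PBS to PFF + AZD1480, and the microglial genes were highest in PFF + VH.

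Several abundant cytokine and receptor genes stood lower in the summed neutrophils of the PFF libraries, although the lists as a whole were mixed. Between PFF + VH and monomer, 4 of 10 cytokine and chemokine genes were at least 2-fold higher and 3 lower, and of 7 JAK/STAT receptors 2 were higher and 2 lower, where 19.4% of all genes were higher and 12.2% lower. Il1b stood at 9000 CPM in PBS (8671 to 9339), 8736 in monomer (8148 to 9356), 2622 in PFF + VH (2421 to 2834) and 2716 in PFF + AZD1480 (2556 to 2883), against 236 to 504 CPM in microglia. With the microglial share removed the Il1b values were 10687, 10162, 4633 and 3143 CPM. After thinning to 500 UMIs, Il1b was found in 84.6%, 84.2%, 46.9% and 49.1% of neutrophils, unthinned in 92.3%, 94.7%, 67.7% and 84.2%, and in 6% to 12.8% of thinned microglia. Its level was thus lower in both PFF libraries than in PBS and monomer. Cxcl2, a chemokine that attracts neutrophils, was highest in monomer (1771 CPM) and stood at 1173, 762 and 622 CPM in PBS, PFF + VH and PFF + AZD1480. With the microglial share removed it stood at 1380, 2057, 1322 and 695 CPM, so that PBS and PFF + VH were close. In granule-low cells with the same share removed it stood at 1721, 2704, 1892 and 1049 CPM, where PFF + VH stood above PBS. That share was estimated over all neutrophils of each library and not over the granule-low cells, in which the microglial markers stood higher. Csf3r stood at 2308, 1675, 650 and 759 CPM (2683, 1896, 974 and 837 with the microglial share removed). The decoy receptor Il1r2, which binds interleukin-1 without signalling, stood at 1607, 1909, 667 and 1130 CPM, against at most 2.59 in microglia, and at 1916, 2231, 1264 and 1348 CPM with that share removed. The adhesion gene Itgal, an integrin subunit, stood at 386, 235, 74.5 and 167 CPM (460, 274, 139 and 199 with that share removed). Cxcr4, which holds neutrophils in the marrow and marks aged ones, stood at 325, 224, 91.1 and 197 CPM (387, 262, 169 and 234 with that share removed). In granule-low cells alone, Il1r2 stood at 1922, 2507, 870 and 1779 CPM and Cxcr4 at 379, 266, 111 and 273 CPM. The intervals of PFF + AZD1480 and PBS overlapped there for both genes. Csf3r (2863, 2157, 829 and 1237 CPM) and Itgal (459, 308, 99.2 and 224 CPM) stood lower in granule-low cells of both PFF libraries. For Itgal the intervals of PFF + AZD1480 (163 to 299 CPM) and monomer (193 to 466 CPM) overlapped. Il6 and Il10 were at or near 0, with at most 7.59 CPM.

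JAK/STAT targets other than the interferon set were lower in the PFF libraries as well. The 14 genes, which microglia also express at 7904 to 8555 CPM, held 1.5% of UMIs in PBS, 1.35% after monomer, 0.83% with PFF + VH and 0.719% in PFF + AZD1480. With the microglial share removed they summed to 16282, 14388, 8631 and 6934 CPM. Pim1, a kinase induced by STAT factors, stood at 1202, 1077, 431 and 407 CPM, and the survival gene Mcl1 at 2276, 2069, 1031 and 870 CPM. In granule-low cells, with the share of all neutrophils of each library removed, Pim1 stood at 1741, 1640, 1060 and 867 CPM and Mcl1 at 3061, 2972, 1782 and 1425 CPM. The 12 microglial markers stood at 7034, 7031, 18670 and 9376 CPM in granule-low cells, against 5777, 5525, 17083 and 5449 CPM in all neutrophils. Less was therefore removed than the markers of the granule-low cells themselves would give. Socs3, the feedback inhibitor of G-CSF and IL-6 signalling, stood at 367, 192, 228 and 45.5 CPM, but at 362 to 556 CPM in microglia. After removal of the microglial share its value in PFF + VH was 25 CPM. Of the kinases themselves, Jak1 stood at 299 to 432 CPM and Jak2 at 25.3 to 76.5 CPM.

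Counted over all genes with at least 50 UMIs in a pair of libraries, monomer neutrophils were at least 2-fold higher than PBS in 21 of 1312 genes (1.60%) and at least 2-fold lower in 68 (5.18%). Of 9 interferon-stimulated genes with that many UMIs none was higher and 2 were lower, with a median log2 ratio of -0.46 against -0.07 over all genes. PFF + VH was at least 2-fold higher than monomer in 207 of 1066 genes (19.4%) and lower in 130 (12.2%). Higher were 8 of 8 microglial markers outside the rule, lower were 4 of 5 interferon-stimulated genes and 7 of the 10 neutrophil genes outside the rule. PFF + AZD1480 was at least 2-fold higher than PFF + VH in 167 of 1987 genes (8.40%) and lower in 292 (14.7%). Higher were 7 of 10 secondary granule genes and 7 of 10 genes of tertiary granules and secretory vesicles, and lower were 8 of 8 microglial markers outside the rule. These are counts over 1 library each, and the part that the microglial share plays in those with PFF + VH was not tested.

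The drug was tested over hashtags with at least 5 neutrophils, which were hashtags 1, 3 and 4 of PFF + VH and hashtags 2, 4 and 5 of PFF + AZD1480. Of 903 genes tested with edgeR's quasi-likelihood test and Benjamini-Hochberg adjustment, 38 were higher (4.21%) and 94 lower (10.4%) with AZD1480. Genes entered the test by reaching about 182 CPM in 3 hashtags. Of the 38, 15 reached it in no vehicle hashtag, and of the 94, 40 reached it in no AZD1480 hashtag, so that these had to differ and their calls are a description. The genes that fell were largely more abundant in microglia than in PBS and monomer neutrophils, a measure that ribosomal protein genes among them also met. Of the 94, 92 were higher in microglia of the PFF libraries than in neutrophils of PBS and monomer, which held for 396 of all 903 genes and for 1 of the 38 that rose. The 2 exceptions, Ifi27l2a and Gk, were among the 40, so it held for all fallen genes outside those 40. Of the 8 microglial markers outside the rule all were tested and 6 fell, with C1qa, a complement subunit, at 4398, 2036 and 2337 CPM in the vehicle hashtags and at 395, 770 and 372 CPM with AZD1480, without overlap (log2 change -2.35, SE 0.46, adjusted p = 0.00649). The estimated microglial share was 63.8%, 29.3% and 37.2% in the vehicle hashtags and 9.40%, 15.2% and 4.96% in those with AZD1480, and also did not overlap, nor did it with the 8 markers outside the rule (64.7%, 26.1% and 35.1% against 10.3%, 15.5% and 5.11%). The part of this share in each change was not tested gene by gene. Among 118 tested genes that were at least 20-fold higher in PBS and monomer neutrophils than in other cells, 25 rose and none fell. Some of the 25, among them Olfm4, Dach1, Fpr1 and Fpr2, reached the level for testing in no vehicle hashtag, so this count is a description too. When such genes alone were fitted, so that they set the library size, edgeR called 0 of 83, with 7 at an unadjusted p below 0.05. DESeq2, over all genes, called 7 higher and 71 lower. Single hashtags weighed heavily in these counts. They were 1 and 18 without hashtag 1 of PFF + VH, 81 and 161 without its hashtag 3, 4 and 51 without its hashtag 4, and 14 and 60 without hashtag 5 of PFF + AZD1480. Ribosomal protein genes made up 18 of the 94, out of 69 tested, with a median log2 change of -1.13.

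**Figure D4:**
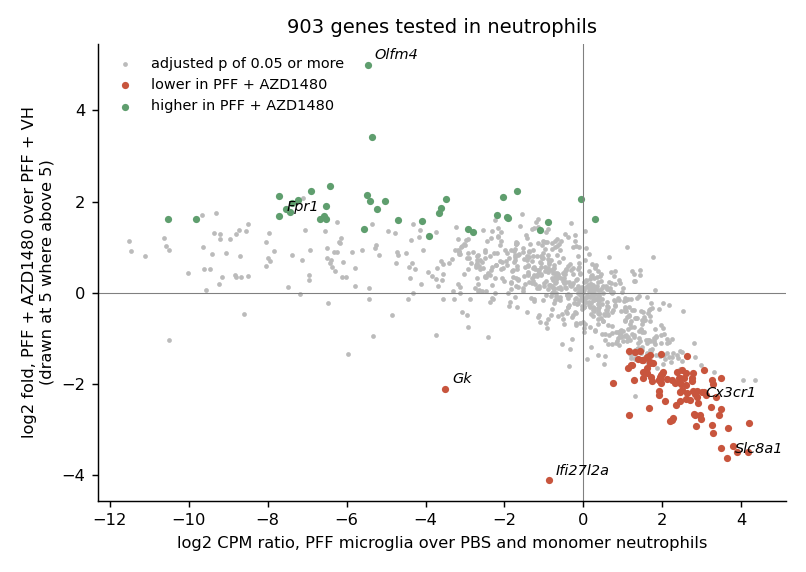
Log2 change with AZD1480 in neutrophils (3 hashtags against 3) for 903 genes, against the log2 CPM ratio of PFF microglia over PBS and monomer neutrophils, with genes past an adjusted p of 0.05 coloured. The 94 genes that fell lie almost all at the right, where genes more abundant in those microglia than in those neutrophils lie, with Ifi27l2a and Gk as the 2 exceptions.

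Of the 94 genes that fell, 2 were not higher in microglia of the PFF libraries than in PBS and monomer neutrophils, and 1 of these 2 is induced by interferon. Ifi27l2a (chr12:103442167-103443680, minus strand, protein-coding, mm10) stood at 251, 195 and 343 CPM in the vehicle hashtags and at 0, 21.4 and 0 CPM with AZD1480. The groups did not overlap, and the log2 change was -4.10 (SE 0.74, adjusted p = 0.00453, edgeR). The gene entered the test through the vehicle hashtags alone, with 16, 9 and 11 UMIs there against 0, 3 and 0, so this call is a description too. Summed by library it stood at 271 CPM in PBS (216 to 335), 139 in monomer (73.8 to 237), 207 in PFF + VH (154 to 273) and 17.7 in PFF + AZD1480 (7.12 to 36.5). The PFF + VH interval overlapped those of PBS and monomer, while that of PFF + AZD1480 lay below all. In microglia it stood at 47.0, 39.3, 165 and 56.8 CPM, and it fell there too (log2 change -1.67, adjusted p = 0.0115). Removing the microglial share left 314, 155, 245 and 10.1 CPM. The other gene, Gk (glycerol kinase), named after its value was seen, stood at 393, 303 and 218 CPM with vehicle and at 0, 92.7 and 45.1 CPM with AZD1480 (log2 change -2.10, SE 0.54, adjusted p = 0.0207), and also entered through the vehicle hashtags alone.

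Of the 23 interferon-stimulated genes fixed as a list, 4 had enough UMIs to be tested over hashtags and none passed the threshold, where 14.6% of all genes did in either direction. Their median log2 change was -0.25, against 0.10 over all genes tested. Ifitm1 stood at 251, 520 and 872 CPM with vehicle and at 527, 300 and 67.6 CPM with AZD1480, and the groups overlapped (log2 change -1.03, SE 0.57, adjusted p = 0.225). Isg15 had too few UMIs for the fit. It stood at 31.4, 0, 173 and 249 CPM in hashtags 1 to 4 with vehicle and at 36.2, 132, 44.6, 35.7 and 0 CPM in hashtags 1 to 5 with AZD1480, so that hashtags of the 2 conditions overlapped. The 23 genes summed to 1979, 3314 and 2804 CPM in the tested vehicle hashtags and to 1910, 1733 and 1792 CPM in those with AZD1480, without overlap. Hashtag 1 of PFF + AZD1480, with 3 neutrophils, stood at 2567 CPM, within the vehicle range. This sum was not tested.

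**Figure D5:**
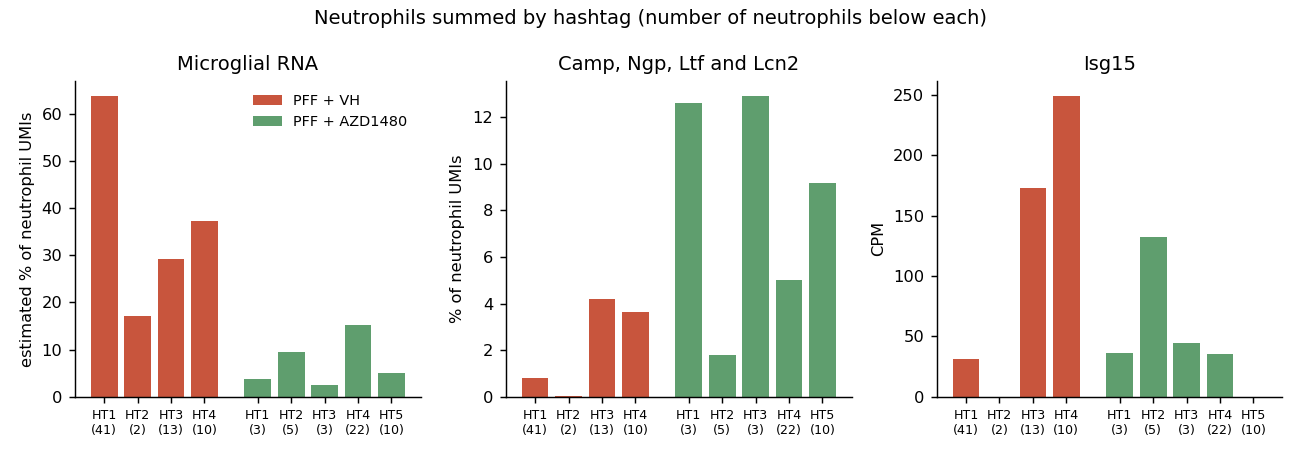
Estimated microglial share of UMIs, share of UMIs in Camp, Ngp, Ltf and Lcn2, and Isg15 CPM in the neutrophils of each hashtag, with the number of neutrophils below each bar. The microglial share was 17.1% to 63.8% with vehicle and 2.52% to 15.2% with AZD1480, while the other measures overlapped.

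Of the secondary granule list, 10 of 10 genes were tested, and Mmp8 and Olfm4 passed as higher and none as lower, where 4.21% and 10.4% of all genes did. Olfm4 is left out of any reading of that count, since it had no UMI in any vehicle hashtag, entered the fit through the AZD1480 hashtags alone and was called against a count of 0 (adjusted p = 0.00238, edgeR). The adjusted p was 0.0607 with the hashtag number as a block and 0.0742 when neutrophil-restricted genes alone were fitted, and the fitted change is not given as a fold. Mmp8, the neutrophil collagenase, stood at 487, 866 and 343 CPM with vehicle and at 922, 1263 and 2288 CPM with AZD1480 (log2 change 1.62, SE 0.51, adjusted p = 0.0467), without overlap, and at an adjusted p of 0.700 among neutrophil-restricted genes alone. The most abundant members did not pass. Camp stood at 3141, 16220 and 13620 CPM with vehicle and at 2634, 17930 and 32120 CPM with AZD1480 (log2 change 0.94, SE 0.79, adjusted p = 0.456), and Ltf changed by 1.70 (SE 0.63, adjusted p = 0.0768).

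Of 9 tested genes of tertiary granules and secretory vesicles 2 passed as higher, both receptors for formyl peptides that guide neutrophils to bacteria. Both entered the test through the AZD1480 hashtags alone, so nothing is read from this count. Fpr2, Cd24a and G0s2 had an adjusted p of 0.700 when neutrophil-restricted genes alone were fitted, and Fpr1 was not in that fit. Fpr1 stood at 78.5, 173 and 93.5 CPM with vehicle and at 461, 407 and 225 CPM with AZD1480 (log2 change 1.68, SE 0.51, adjusted p = 0.0409). Fpr2 changed by 2.12 (SE 0.63, adjusted p = 0.0378). Cd24a, a surface glycoprotein of the trafficking list, rose by 1.78 (SE 0.46, adjusted p = 0.0202), and G0s2, an inhibitor of lipolysis among the markers outside the rule, by 1.62 (SE 0.49, adjusted p = 0.0388). After Olfm4, the largest rises without overlap of the hashtags were in Dach1, Mpc2, F630028O10Rik and Xdh, at log2 changes of 2.14 to 2.34. The first 3 reached the level for testing in no vehicle hashtag and Xdh in 1, so their calls are a description. Xdh, the xanthine dehydrogenase that forms uric acid, stood at 47.1, 217 and 0 CPM with vehicle and at 263, 399 and 394 CPM with AZD1480, without overlap. In the alternative settings that tested them the calls were lost in 7 of 14 for Dach1, 5 of 12 for Mpc2, 4 of 9 for F630028O10Rik and 11 of 14 for Xdh. The largest falls besides Ifi27l2a were in Slc8a1, Gpr183, Mir99ahg and Nav3, at -3.41 to -3.62, and all 4 were more abundant in microglia than in PBS and monomer neutrophils and reached the level for testing in no AZD1480 hashtag.

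Of the JAK/STAT lists, on whose kinases the drug acts, few genes could be tested. None of 5 tested JAK/STAT receptors, 3 core genes or 7 targets reached the threshold, where 14.6% of all 903 genes did in either direction, so that the counts of 0 lie near that background. Their median log2 changes were -0.16, 0.60 and 0.15. Il1b did not pass, at 1838, 3509 and 3241 CPM with vehicle and 3227, 4415 and 823 CPM with AZD1480 (log2 change -0.01, SE 0.50, adjusted p = 0.995). The NF-kB inhibitor gene Nfkbia fell by 1.98 (SE 0.45, adjusted p = 0.0144), as did the chemokines Ccl4 by 2.21 and Ccl3 by 1.68 and the immediate early genes Jun by 2.82 and Egr1 by 2.37. All 5 were higher in microglia than in PBS and monomer neutrophils.

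Whether the drug's change in neutrophils differed from that in microglia of the same hashtags was tested as an interaction. Of 11661 genes, 4 had a higher change in neutrophils (0.0343%) and 9 a lower one (0.0772%), while with RLE scaling the counts were 22 and 102. Without hashtag 2 of PFF + AZD1480 they were 26 and 41, and without any other single hashtag 2 and 0 to 12. The 3 leading genes on the higher side were Olfm4 (adjusted p = 3.3e-11, again against a count of 0), the chemokine receptor Ccr1 (adjusted p = 2.81e-07) and Cd300lf (adjusted p = 0.0222). Ccr1 stood at 244 and 316 CPM in the neutrophils of PFF + VH and PFF + AZD1480 and at 28.4 and 3.68 CPM in their microglia (interaction log2 4.14, SE 0.63). The neutrophil change itself did not pass (adjusted p = 0.26). The leading genes on the lower side were Slc8a1 (adjusted p = 0.00439) and Cd83 (adjusted p = 0.0222), and all 9 were more abundant in PFF + VH microglia than in PBS and monomer neutrophils. The interaction of Ifi27l2a did not pass (log2 -2.12, SE 0.99, adjusted p = 0.657).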

How the data were processed

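Per the labels and methods, single-cell 3′ libraries were aligned to mm10 with Cell Ranger (file header 7.0.1), and the authors deposited filtered matrices of UMI counts with hashtag counts for both PFF libraries. Doublets were identified only as cells with several hashtags. Those cells, and cells without a hashtag call, stayed in library totals and were left out of tests. Neutrophils were chosen by the stated rule, and the members and gene lists were chosen with earlier results of these data known. Hashtags were called with HTODemux (Seurat 5.3.0, quantile 0.99) and taken as replicates because their number equals the replicates of the study. P-values therefore measure only the spread between hashtag samples. Counts were summed per hashtag and tested with edgeR 4.0.16 (quasi-likelihood, adjusted p below 0.05, at least 5 neutrophils per hashtag). Simulated data with 200 changed genes gave recovery of 2% at 2-fold, 70% at 4-fold and 75.5% at 8-fold for this comparison (807, 859 and 782 genes tested). Shares were compared by an exact permutation test (scipy 1.17.1). Microglia were cells with at least 5 UMIs of the 4 microglial genes that were not neutrophils. Named genes were the most abundant members of the lists, the 10 leading genes by ratio, the 5 largest changes without overlap in each direction, and the 3 smallest interaction p-values in each direction. The alternatives were RLE scaling, no filter on low counts, DESeq2 1.42.0, other rules for cells and hashtags, a replicate block and leaving out each hashtag. Fits of neutrophil-restricted genes alone and of hashtags 1 to 4 without a block, and values without the microglial share or in granule-low cells, were added after the data were seen. Some genes, among them 1 of the 3 with the smallest interaction p-values on the lower side, are not reported here.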

Additional observations from a re-analysis of the deposited data

Results flagged for a closer look

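In 13 genes the change with AZD1480 differed between neutrophils and microglia by the interaction test of edgeR (adjusted p below 0.05), of which 12 are given here. Higher in neutrophils were Olfm4 (interaction log2 16.41, with 0 UMIs in the vehicle neutrophils, so that the size depends on the value added to 0), Ccr1 (4.14), Cd300lf (3.04) and Nt5e (4.90). Lower in neutrophils were Slc8a1 (-3.75), Cd83 (-3.26), Zdhhc14 (-12.91, with 0 UMIs in the AZD1480 neutrophils tested, so that its size likewise depends on the value added to 0), Mertk (-3.45), Nav3 (-3.28), Blnk (-4.07), Mir99ahg (-3.37) and Fhit (-4.25). The estimated microglial share of the neutrophils' UMIs was 29.3% to 63.8% in the vehicle hashtags tested and 4.96% to 15.2% in those with AZD1480, and its part in these differences was not tested. Among 10 groups of hashtag values, no single hashtag lay past Dixon's critical value.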

How the results depend on the processing

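With no UMI of the 4 microglial genes allowed, neutrophil shares were 0.157%, 0.0266%, 0.0145% and 0.0768% in PBS, monomer, PFF + VH and PFF + AZD1480, and secondary granule shares 1.89%, 0.398%, 0.793% and 7.13%. In PFF + VH the neutrophil share was 0.218% with the rule applied after thinning, and the granule share 3.38% in cells of at least 1000 UMIs. The difference in share between PFF + AZD1480 and PFF + VH was -0.119 points with MULTIseqDemux, and -0.0600 to 0.225 when 1 hashtag was left out. With no UMI of the 4 microglial genes allowed, the mean share was 0.0806% with AZD1480 and 0.0274% with vehicle (exact permutation test, p = 0.175). The hashtags then ranged from 0% to 0.169% and from 0.0222% to 0.0373%. Genes higher and lower with AZD1480 (38 and 94) were 10 and 46 without a filter on low counts, 7 and 71 with DESeq2, 12 and 23 with the rule after thinning, 4 and 49 with MULTIseqDemux, 0 and 0 among neutrophil-restricted genes, and 1 to 81 and 18 to 161 when 1 hashtag was left out. The smaller tests of thinned or fewer cells hold fewer UMIs, and otherwise the cause was not tested. With the hashtag number as a replicate block over hashtags 1 to 4 the counts were 8 and 19 of 712 genes tested, and 18 and 46 of 390 for the same hashtags without it. Same-numbered hashtags did not deviate together (r of -0.04, 0.03, 0.00 and -0.08 over 1095 genes), and 1 of 4 correlated best with its own number. Interaction genes (4 and 9) were 22 and 102 with RLE scaling, 9 and 29 without a filter, and 2 to 26 and 0 to 41 when 1 hashtag was left out. Slc8a1, Nav3, Gpr183 and Ifi27l2a passed in every alternative that tested them, but entered through the vehicle hashtags alone, so this is no sign of stability. Olfm4, at 0 in all vehicle hashtags, was lost with the block and among neutrophil-restricted genes, and its call elsewhere is no sign of stability. Calls were lost in 7 of 14 for Dach1, 5 of 12 for Mpc2, 4 of 9 for F630028O10Rik and 11 of 14 for Xdh. The gene fit without microglial UMIs was not run because PFF + VH held 5 such cells. In simulated data of this design edgeR recovered 2% of 2-fold changes, and the monomer library held 19 neutrophils.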

Other observations

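The 10 survival and apoptosis genes held 0.318% of the neutrophils' UMIs in PBS, 0.274% after monomer, 0.193% with PFF + VH and 0.143% in PFF + AZD1480. With the microglial share removed they summed to 3393, 2862, 1667 and 1208 CPM. The 14 glycolysis and hypoxia genes varied less, from 0.284% in monomer to 0.359% in PFF + AZD1480. Of 9 tested, 1 fell with AZD1480, where 10.4% of all genes did. It was Hk2 (log2 change -1.84, adjusted p = 0.0272, edgeR), which stood higher in microglia (202 to 261 CPM) than in PBS neutrophils (63.8 CPM). Alox5ap, the protein that presents arachidonic acid to 5-lipoxygenase, stood at 1384, 1184, 799 and 1156 CPM in PBS, monomer, PFF + VH and PFF + AZD1480. These values hold the microglial share, and microglia of the PFF libraries stood lower, at a mean of 277 CPM. Pattern and lectin receptor genes held 0.831%, 0.738%, 0.383% and 0.491% of UMIs in the same order, and none of 8 tested passed, where 14.6% of all genes did in either direction. With the microglial share removed these genes summed to 9484, 8241, 5255 and 5411 CPM.

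Thbs1, the gene of thrombospondin 1, named after its value was seen, passed the test with AZD1480 (log2 change 3.42, SE 0.86, adjusted p = 0.0202, edgeR) although its hashtags overlapped. It stood at 62.8, 303 and 125 CPM in the vehicle hashtags and at 0, 2461 and 1826 CPM in those with AZD1480. Btbd9 was the 1 gene of the 38 that rose and was more abundant in microglia than in PBS and monomer neutrophils, with 110, 130 and 31.2 CPM with vehicle and 461, 264 and 214 CPM with AZD1480.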
